A study of Homo sapiens with 30 samples.

Results

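Solute carriers (SLC) are membrane proteins that move amino acids, sugars, ions, metals, vitamins and metabolites across cellular membranes. Members were the genes whose symbol has the form SLC, a family number, A and a member number, with at least 200 counts summed over the 8 RNA libraries. SLC2A1 and SLC7A11 were left out. This gave 195 genes from 45 families, of 27630 genes in the count tables and 334 with such a symbol. The other 137 had fewer counts, among them 12 with none. No difference between groups was a criterion, but the sum ran over all groups. A gene with few counts could therefore pass through the group where it was high. SLC10A1, for example, had 343 counts in the nuclear and 3 in the cytosolic libraries. Differences of such low-count members from the other groups are not independent of the choice. SLC34A3 (200 counts) and SLC47A2 (202) lay just inside the threshold, and SLC6A4 (193) and SLC15A2 (195) just outside it. These 4 genes had most of their counts in the nuclear libraries, for example 73 and 54 of the 200 of SLC34A3.

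RNA was sequenced from HEK293FT, an established human embryonic kidney line, in 4 groups of 2 libraries. All groups came from asynchronous cells transfected with a construct that joins the peroxidase APEX2 to lamin B1. APEX2 tags molecules in its surroundings, and lamin B1 places it at the lamina, the protein mesh under the inner nuclear membrane. The nuclear and cytosolic groups are RNA of cell fractions, the native lamina group is RNA recovered with the tag from material labelled native, and the PFA lamina group is the same from material fixed with paraformaldehyde. The fusion was brought in by transfection, beside the cell's own lamin B1. The labels name no unlabelled or untransfected library, so the fractions are the background here. They do not say that the 2 libraries of a group were separate cultures, so p-values measure the spread between these libraries, which may be technical.

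Most SLC proteins are made by ribosomes at the endoplasmic reticulum, whose membrane is continuous with the outer nuclear membrane, and reach the plasma membrane or an organelle from there. The SLC25 family is different. Its proteins are called the mitochondrial carriers. Most are made on cytosolic ribosomes and imported into the inner mitochondrial membrane, while a few lie in the outer membrane or in peroxisomes. They exchange ADP for ATP, take up phosphate and pass citrate, amino acids and cofactors. The members therefore did not share 1 route of translation. SLC25 supplied 40 members, and the other 155 were grouped by the substrate of their family. SLC25A6, an ADP/ATP carrier almost identical to SLC25A5, was listed at 0 counts in all 8 libraries and is no member.

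Total counts ranged from 2321291 (PFA lamina replicate 2) to 8557777. The members took 0.561% to 0.883% of them, and all 195 passed the filter on low counts. LMNB1, the gene of the fusion, had 3220 to 6379 normalised CPM (counts scaled to the size of the library) in the fractions and 26128 to 96139 in the lamina libraries. The nuclear RNAs MALAT1, NEAT1 and KCNQ1OT1 summed to 13715 and 22756 CPM in the nuclear and 969 and 1296 in the cytosolic libraries. At the native lamina they reached 6333 and 13548. The PFA libraries lay apart from each other. Replicate 1, at 711, was below both cytosolic libraries, and replicate 2, at 4095, was between the fractions. Of the lists that mark cell lines and other tissues, those for K562 reached at most 1.83 CPM in sum, with HBG1 and HBG2 at 0, and those for blood and liver at most 3.67, with PTPRC and CD3E at 0. The 4 markers of HEK293 summed to 61.7 to 327 CPM, of which NEFL gave 39.4 to 232 and PAX2 only 0 to 6.24. The markers of HCT116 summed to 20.2 to 48.8, with CDX2 at 9.31 to 48.4. CPM are shares of a library, so fewer molecules of a gene and more of all others cannot be told apart.

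The comparison of the fractions set the mitochondrial carriers apart from the other members. Of the 195 members, 81 had a higher level in the nuclear fraction and 15 in the cytosolic one (adjusted p under 0.05 in the quasi-likelihood test of edgeR). Over all 16504 genes tested 26.1% were higher and 21.2% were lower. Of the 155 members outside SLC25, 77 were higher and 2 lower. Of the 40 mitochondrial carriers, 4 were higher and 13 lower. The median log2 fold change was 0.91 for the former and -0.34 for the latter, beside 0.13 for all genes tested. Both nuclear libraries lay above both cytosolic libraries for 120 of the 155 (42.4% of all genes) and below them for 19 of the 40 (35.5% of all genes).

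Another scaling moves all genes together and so changes how many pass the test. With upper-quartile factors the median of all genes moved by 0.27, and 109 members were higher and 11 lower, of which SLC25 had 5 and 9. With total counts 67 were higher and 14 lower, of which SLC25 had 4 and 12. Leaving out 1 library, which leaves 1 in its group, also moved the counts. The number of higher members was 44 without nuclear replicate 1, 45 without cytosolic replicate 1 and 52 without cytosolic replicate 2. Of the 81 higher members 31 were called without each of the 8 libraries in turn, and of the 15 lower members 7 were, namely SLC25A3, SLC25A5, SLC25A15, SLC25A23, SLC25A24, SLC25A46 and SLC35A4. The split by SLC25 was added after the data had been seen.

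**Figure D1:**
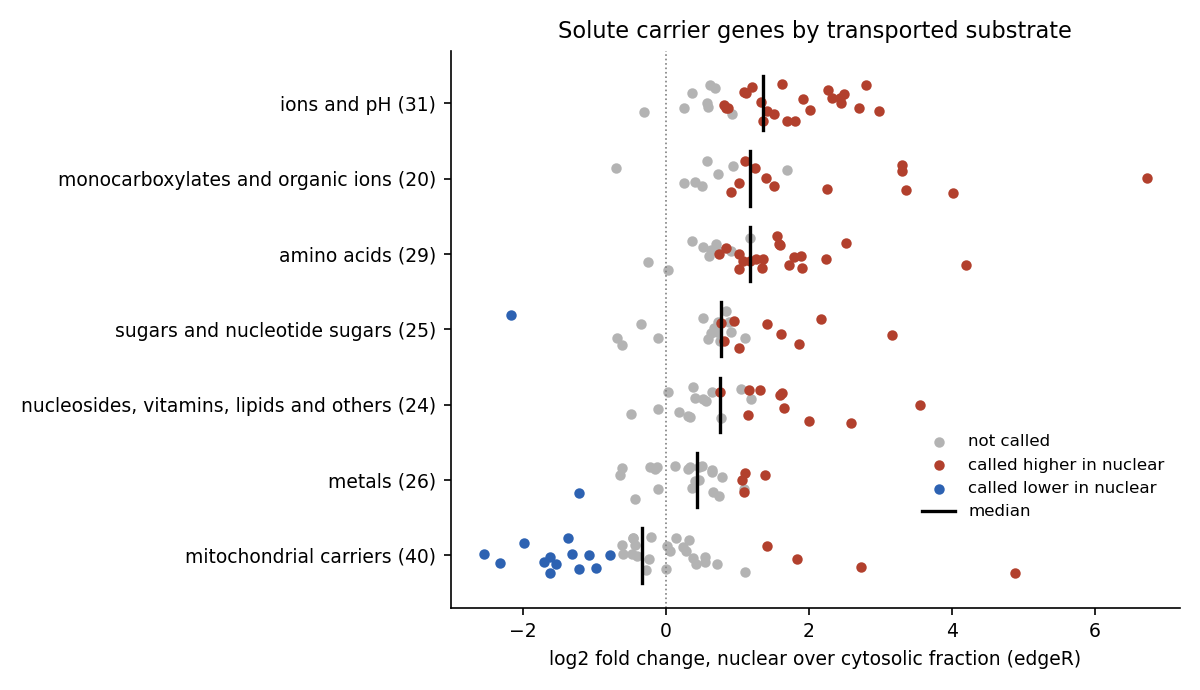
Log2 fold change between the nuclear and the cytosolic fraction (horizontal axis) of each of the 195 members, in rows by substrate group with the number of members in brackets. Points are genes, coloured by the edgeR call, and bars are medians, which lie at 1.36 for ions and pH and at -0.34 for the mitochondrial carriers.

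SLC25A5 (hg19, chromosome X, 118602363 to 118605359), the ADP/ATP carrier that hands mitochondrial ATP to the cytosol, was the member with the highest level per kilobase of exon. It had 57.2 and 83.5 CPM in the nuclear, 326 and 497 in the cytosolic, 164 and 93.4 in the native lamina and 313 and 152 in the PFA lamina libraries. The cytosolic libraries were the highest and the nuclear libraries the lowest, with both lamina preparations in between and no overlap of the fractions. It was 5.84-fold lower in the nucleus (log2 fold change -2.55, SE 0.42, edgeR adjusted p 9.46e-04). Of its exonic bases 16.8% are shared with an antisense gene, and with counting that ignored strand their reads cannot be told apart. Reads of near-identical copies of SLC25A5 may also be split by the mapping, so its level is uncertain.

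SLC25A3 (chromosome 12, 98987403 to 98995778), the carrier that brings phosphate into mitochondria, had 101 and 127 CPM in the nuclear libraries. The cytosolic libraries held 280 and 387, the native lamina 119 and 74.2, and the PFA lamina 214 and 130. The native values lay at the nuclear level and the PFA values between the fractions. SLC25A3 was 2.91-fold lower in the nucleus (log2 fold change -1.54, SE 0.35, edgeR adjusted p 0.00366).

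SLC25A23 and SLC25A24 are calcium-regulated carriers of ATP-Mg and phosphate. SLC25A23 (chromosome 19, 6440075 to 6459781) had 19.1 and 28.1 CPM in the nuclear, 103 and 134 in the cytosolic, 47.6 and 49.6 in the native and 90.8 and 48.8 in the PFA libraries. SLC25A24 (chromosome 1, 108677344 to 108742980) had 16.3 and 13.7 in the nuclear, 40.9 and 51.8 in the cytosolic, 41.4 and 44.4 in the native and 40.8 and 44.8 in the PFA libraries. For SLC25A23 the lamina lay between the fractions, whereas for SLC25A24 all 6 libraries outside the nuclear group lay close together, from 40.8 to 51.8. The log2 fold changes between nucleus and cytosol were -2.33 (SE 0.35) and -1.62 (SE 0.28).

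SLC25A15 (chromosome 13, 41363547 to 41386596), the ornithine carrier of the urea cycle, had 10.1 and 11.1 CPM in the nuclear, 44.1 and 40.6 in the cytosolic, 36.3 and 21.3 in the native and 41.9 and 23.1 in the PFA libraries. Its nuclear libraries were the lowest, with a log2 fold change of -1.99 (SE 0.36). The other carriers lower in the nucleus were SLC25A46 (-1.62), an outer membrane protein of mitochondrial shape, SLC25A39 (-1.38, glutathione), SLC25A38 (-0.98, glycine), SLC25A20 (-1.31, acylcarnitines), SLC25A13 (-1.71, aspartate and glutamate), SLC25A11 (-1.22, oxoglutarate and malate), SLC25A1 (-1.07, citrate) and SLC25A4 (-0.78, a second ADP/ATP carrier). Several of these calls were lost when 1 library was left out, which leaves 1 library in its group. SLC25A1 stood at -0.69 without nuclear replicate 1 and at -0.47 without cytosolic replicate 2, and neither was a call. SLC25A39 and SLC25A11 were lost without nuclear replicate 1, where they stood at -1.21 and -1.11. SLC25A13 and SLC25A20 were lost without nuclear replicate 2 (-1.47 and -1.02) and without cytosolic replicate 1 (-1.21 and -1.08). SLC25A38 and SLC25A4 were lost without any 1 of the 4 fraction libraries, so their calls needed all 4 of them. With each of the 8 libraries left out in turn SLC25A38 ranged from -1.21 to -0.79 and SLC25A4 from -0.85 to -0.77.

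Only 2 members outside SLC25 were lower in the nucleus. SLC35A4 (chromosome 5, 139944150 to 139948689) belongs by sequence to the nucleotide sugar transporters of the Golgi, and its transcript also encodes a small mitochondrial protein from an upstream reading frame. It had 21.7 and 28.1 CPM in the nuclear, 120 and 104 in the cytosolic, 69.6 and 41.9 in the native and 116 and 71.9 in the PFA libraries. The fractions did not overlap, and the log2 fold change was -2.17 (SE 0.34, edgeR adjusted p 8.36e-04). SLC30A9 (chromosome 4, 41992523 to 42089551), by family a zinc exporter, is known as the zinc transporter of mitochondria. Its values were 37.4 and 28.6 CPM in the nuclear, 76.0 and 77.3 in the cytosolic, 62.3 and 55.2 in the native and 107 and 51.0 in the PFA libraries. The nuclear libraries were the lowest (log2 fold change -1.21, SE 0.34, edgeR adjusted p 0.0109). Its call was lost without nuclear replicate 2 (edgeR adjusted p 0.0870). SLC30A9 was named after its values had been seen.

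In the other direction 4 mitochondrial carriers were higher in the nucleus. SLC25A27, an uncoupling protein mainly of brain, had 19.4 and 21.6 CPM in the nuclear, 2.14 and 4.23 in the cytosolic, 16.4 and 20.9 in the native and 5.17 and 15.8 in the PFA libraries. Its fractions did not overlap (log2 fold change 2.73, SE 0.52, edgeR adjusted p 0.00170). All 5 cytosolic counts of SLC25A18, a glutamate carrier, came from replicate 1. It had 80 and 69 counts in the nuclear and 5 and 0 in the cytosolic libraries, a ratio of 29.6 with a 95% counting interval of 12.4 to 92.6. Over 10% of its exonic bases are shared with another gene. SLC25A16 (1.83) and SLC25A29 (1.42, basic amino acids) were the other 2. SLC25A16 was lost without cytosolic replicate 2 (edgeR adjusted p 0.0581), and SLC25A29 without cytosolic replicate 1 (0.115) and without nuclear replicate 2, where it stood at 0.88. Together the carriers at or below the members' median level per kilobase (6.18 CPM per kilobase) numbered 17, of which 3 were higher and 1 lower, with a median of 0.32. The 23 above it had 1 higher and 12 lower, with a median of -0.78. Low-count carriers such as SLC25A18 could pass the count threshold through their nuclear libraries. The ratio of SLC25A18 and the counts of the 17 carriers are therefore not independent of the rule.

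The level also went with the direction among all genes tested. Above the same level 1268 of 8337 genes were higher and 3043 lower in the nucleus, with a median of -0.43. At or below it 3046 of 8167 were higher and 454 lower, with a median of 0.86. The members outside SLC25 went against this at high level. Of the 74 above the members' median 34 were higher and 2 lower (median 0.74), and of the 81 at or below it 43 were higher and none lower (median 1.11). Some of these 81 passed the count threshold through their nuclear libraries, so the counts at low level are not independent of the rule. The median exonic length was 3210 bases in SLC25 and 3872 in the others. Over all rows of the tables, which include genes with too few counts to test, it was 2378. The part of level and length in the fraction differences was not tested.

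**Figure D2:**
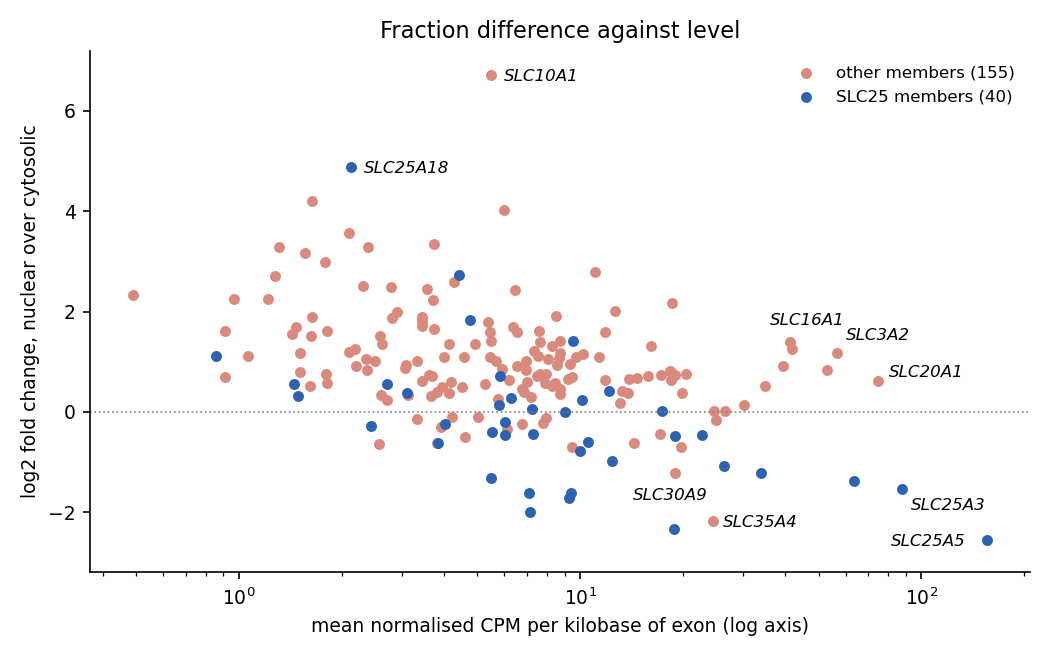
Mean level of each member in normalised CPM per kilobase of exon (horizontal log axis) against its log2 fold change between nuclear and cytosolic fraction (vertical axis), with SLC25 in blue and other members in red. At high level the carriers SLC25A5 (-2.55) and SLC25A3 (-1.54) lie below 0, and SLC20A1, SLC3A2 and SLC16A1 (0.61, 1.18 and 1.39) above it.

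A ratio within each library needs no scaling. The summed CPM of the 40 mitochondrial carriers divided by that of the other 155 members was 0.127 and 0.148 in the nuclear and 0.417 and 0.495 in the cytosolic libraries. The native lamina gave 0.194 and 0.179, the PFA lamina 0.289 and 0.217. The 4 groups did not overlap, and both lamina preparations lay between the fractions, the native one nearer to the nuclear values. PFA replicate 1, the library with the lower nuclear RNA, had the higher ratio of the 2 PFA libraries. Without SLC25A5 and SLC25A3 the ratios were 0.107 and 0.121, 0.282 and 0.303, 0.150 and 0.152, and 0.204 and 0.172, in the same order of groups. Between the fractions the numerator and the denominator moved in opposite directions. SLC25 summed to 991 and 1174 CPM in the nuclear and 1874 and 2278 in the cytosolic libraries, the others to 7787 and 7934 against 4496 and 4601. At the native lamina the SLC25 sums, 1256 and 1097, overlapped the nuclear ones, and only the sums of the others, 6490 and 6129, lay between the fractions. At the PFA lamina SLC25 summed to 1792 and 1342 and the others to 6194 and 6180. No test was made of these sums.

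**Figure D3:**
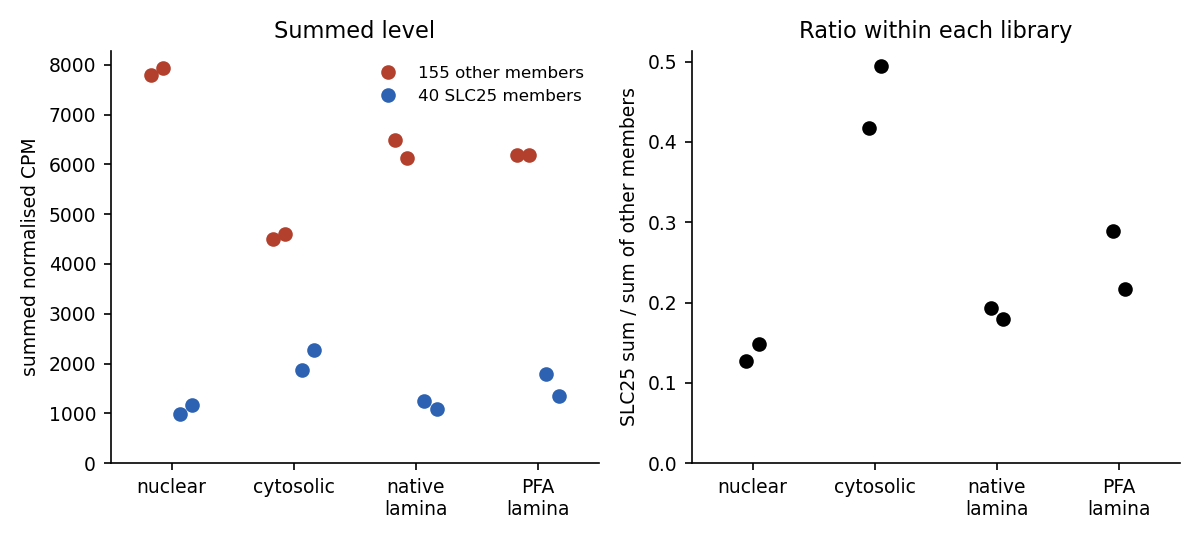
Left, summed normalised CPM of the 155 other members (red) and of the 40 SLC25 members (blue) in each library, by group; right, the ratio of the SLC25 sum to the other sum within each library. The nuclear ratios are lowest (0.127 and 0.148), the cytosolic highest (0.417 and 0.495), and the lamina ratios lie between them (0.179 to 0.289).

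Amino acid transporters numbered 29, of which 19 were higher and none lower in the nucleus (median 1.17). SLC3A2 (chromosome 11, 62623484 to 62656355) is the CD98 heavy chain, which carries light chains such as SLC7A5, the large neutral amino acid transporter LAT1, to the cell surface. SLC3A2 had 173 and 180 CPM in the nuclear, 79.7 and 76.3 in the cytosolic, 159 and 100 in the native and 303 and 248 in the PFA libraries. It was 2.26-fold higher in the nucleus (log2 fold change 1.18, SE 0.30, edgeR adjusted p 0.00684), a call lost without cytosolic replicate 2 (edgeR adjusted p 0.0580). The PFA libraries were the highest of all 8. SLC7A5, its partner, showed no such order. It had 145 and 108 in the nuclear, 180 and 68.0 in the cytosolic, 102 and 68.9 in the native and 123 and 103 in the PFA libraries, and the fractions overlapped (log2 fold change 0.03, SE 0.39, edgeR adjusted p 0.963).

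SLC38A2 (chromosome 12, 46751971 to 46766645), the sodium-coupled neutral amino acid transporter that cells raise when amino acids are scarce, had 255 and 262 CPM in the nuclear, 85.9 and 132 in the cytosolic, 260 and 319 in the native and 131 and 186 in the PFA libraries. The native libraries were at the nuclear level or above it and the PFA libraries lower. SLC38A2 was 2.39-fold higher in the nucleus (log2 fold change 1.25, SE 0.31), a call lost without cytosolic replicate 1 (edgeR adjusted p 0.0827). Of the SLC38 family 6 of 7 members were higher, and SLC38A1 was the exception at 0.37 (SE 0.27, edgeR adjusted p 0.265).

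The glutamine transporter SLC1A5 had 223 and 230 CPM in the nuclear, 124 and 130 in the cytosolic, 139 and 99.5 in the native and 230 and 187 in the PFA libraries. Its log2 fold change between the fractions was 0.83 (SE 0.28, edgeR adjusted p 0.0276), and the call was lost without any 1 of the 4 fraction libraries (edgeR adjusted p 0.10 to 0.136). SLC1A4, the related serine and alanine transporter, was higher by 1.78 (SE 0.33) and SLC1A3, the glial glutamate transporter, by 2.23 (SE 0.49). SLC7A7 (4.2, SE 0.79), which exports cationic amino acids from gut and kidney cells, had the largest amino acid change, from 72 and 79 counts in the nuclear to 5 and 3 in the cytosolic libraries. At such low counts SLC7A7 could pass the threshold through the nuclear libraries, so this change is not independent of the choice. SLC7A1, the arginine transporter, did not pass the test at 0.51 (SE 0.28, edgeR adjusted p 0.145).

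The 31 transporters of ions and pH had 23 higher and none lower in the nucleus (median 1.36). All 6 sodium/proton exchangers of the SLC9 family were higher. So were 6 of 7 members of SLC4, the bicarbonate transporter family, and 4 of 5 anion exchangers of SLC26.

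SLC9A5 had 38.2 and 36.5 CPM in the nuclear, 7.21 and 6.55 in the cytosolic, 22.6 and 37.7 in the native and 18.6 and 33.8 in the PFA libraries. SLC9A8, the exchanger of the Golgi, had 30.2 and 22.3, 7.61 and 7.40, 30.2 and 16.6, and 29.9 and 30.1 in the same order of groups. For both exchangers all 6 libraries outside the cytosolic group lay above it. The log2 fold changes between the fractions were 2.43 (SE 0.38, edgeR adjusted p 8.01e-04) for SLC9A5 and 1.81 (SE 0.36, edgeR adjusted p 0.00209) for SLC9A8.

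SLC12A2, the sodium, potassium and chloride cotransporter NKCC1, was higher by 1.32 (SE 0.30), a call lost without nuclear replicate 1 (edgeR adjusted p 0.0504) and without cytosolic replicate 1 (0.0532). SLC4A7, a sodium bicarbonate cotransporter, was higher by 1.41 (SE 0.31). SLC20A1 (chromosome 2, 113403434 to 113421400), the phosphate importer of the cell surface, had the third highest level per kilobase among the members. It had 225 and 381 CPM in the nuclear, 149 and 250 in the cytosolic, 285 and 208 in the native and 282 and 239 in the PFA libraries. The fractions overlapped, and the difference was no call (log2 fold change 0.61, SE 0.35, edgeR adjusted p 0.167).

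Transporters of monocarboxylates and organic ions had 12 of 20 members higher and none lower (median 1.18). SLC16A1 (chromosome 1, 113454470 to 113498975), the lactate and pyruvate transporter MCT1, had 355 and 330 CPM in the nuclear libraries. Its values were 124 and 138 in the cytosolic, 189 and 148 in the native and 143 and 118 in the PFA libraries. The nuclear libraries stood above the other 6 without overlap, and the log2 fold change was 1.39 (SE 0.28, edgeR adjusted p 0.00221). SLC16A4 (chromosome 1, 110905473 to 110933704), a relative with no settled substrate, had 43.1 and 50.7 CPM in the nuclear, 2.14 and 3.80 in the cytosolic, 7.58 and 7.36 in the native and 2.22 and 9.54 in the PFA libraries. It was 16.2-fold higher in the nucleus (log2 fold change 4.02, SE 0.54, edgeR adjusted p 5.84e-04).

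SLC10A1 (chromosome 14, 70242552 to 70264006), the bile acid importer of liver cells, had 185 and 158 counts in the nuclear, 2 and 1 in the cytosolic, 34 and 40 in the native and 0 and 16 in the PFA libraries. Its ratio of nuclear to cytosolic counts was 114 with a 95% counting interval of 38.6 to 554. The liver gene ALB had 0 to 4 counts per library.

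Of 25 sugar and nucleotide sugar transporters 9 were higher and 1, SLC35A4, was lower (median 0.76). The glucose transporter SLC2A3 (chromosome 12, 8071824 to 8088892) had 205 and 373 CPM in the nuclear, 97.8 and 209 in the cytosolic, 89.5 and 179 in the native and 48.4 and 41.8 in the PFA libraries. The fractions overlapped, the PFA libraries were the lowest of all 8, and the difference was no call (log2 fold change 0.92, SE 0.42, edgeR adjusted p 0.0884). SLC2A14 is a near copy of SLC2A3 next to it on chromosome 12, so reads may be split between them. SLC5A3, the inositol transporter, was higher in the nucleus by 2.17 (SE 0.48, edgeR adjusted p 0.00350).

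The 24 transporters of nucleosides, vitamins, lipids and other substrates had 10 higher and none lower (median 0.76). SLC33A1, which imports acetyl-CoA into the endoplasmic reticulum, had 42.0 and 39.6 CPM in the nuclear and 11.9 and 15.2 in the cytosolic libraries, with the native lamina at 25.1 and 24 and the PFA lamina at 20.3 and 21.3. All 4 lamina values lay between the fractions, and the log2 fold change was 1.6 (SE 0.29, edgeR adjusted p 0.00143). SLC29A1, the nucleoside transporter ENT1, was higher by 0.76 (SE 0.27, edgeR adjusted p 0.0352), a call lost without any of the fraction or native lamina libraries (edgeR adjusted p 0.0507 to 0.215). The folate carrier SLC19A1 (0.38, SE 0.33, edgeR adjusted p 0.365) and the choline transporter SLC44A1 (0.30, SE 0.27, edgeR adjusted p 0.365) did not pass.

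Metal transporters had the smallest median among the groups outside SLC25, 0.43, with 4 of 26 higher and 1, SLC30A9, lower. Of the 11 SLC39 zinc importers 1 was higher, SLC39A10, with 72.7 and 77.5 CPM in the nuclear and 19.4 and 51.8 in the cytosolic libraries (log2 fold change 1.09, SE 0.39, edgeR adjusted p 0.0349). Its value was 0.52 without cytosolic replicate 1 and 1.93 without cytosolic replicate 2, and the call was also lost without either nuclear library (edgeR adjusted p 0.101 and 0.117). The zinc exporter SLC30A1 did not pass at 0.46 (SE 0.35, edgeR adjusted p 0.299).

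**Figure D4:**
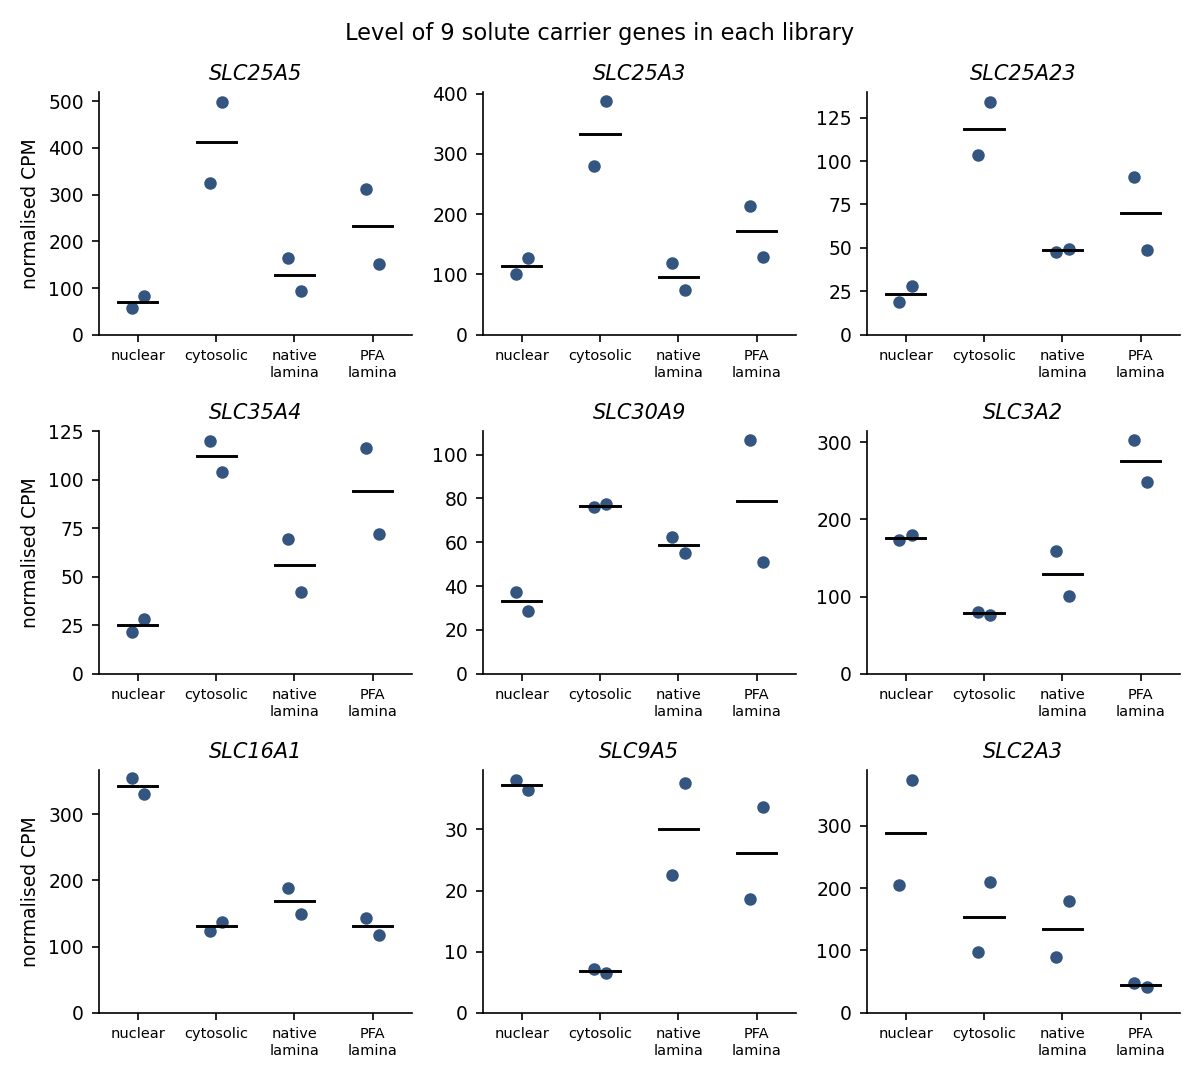
Normalised CPM (vertical linear axes from 0, 1 panel per gene) of 9 members in the 8 libraries, in columns by group, with points for libraries and bars for group means. SLC25A5, SLC25A3 and SLC25A23 are highest in the cytosolic libraries, SLC16A1 in the nuclear libraries, and SLC3A2 in the PFA lamina libraries (303 and 248).

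The lamina preparations were then set against each fraction. These comparisons share the fraction libraries, so their counts are not independent of each other. Native lamina RNA exceeded nuclear RNA for 2 members and fell short of it for 7, beside 3.87% and 3.44% of all genes. The share of the members called lower lay near that of all genes, and the share called higher lay below it. The members' median was -0.34, which is -0.27 relative to all genes. With total counts in place of TMM factors the median of all genes moved by 0.28, and 8 members were higher and 2 lower. The 2 higher members were mitochondrial carriers, SLC25A24 (1.51, SE 0.28, edgeR adjusted p 0.0141) and SLC25A15 (1.44, SE 0.36, edgeR adjusted p 0.0346). The 7 lower ones lay outside SLC25, as did 155 of all members. They included SLC16A4 (-2.65) and SLC16A1 (-1.02) of the monocarboxylate transporter family, the amino acid transporter SLC1A4 (-1.59), the fatty acid transporter SLC27A3 (-1.51) and the nucleoside transporter SLC29A1 (-1.05). With total counts only SLC16A4 and SLC1A4 of these 7 remained called. Both native libraries lay above both nuclear ones for 22 members and below them for 95, beside 28.3% and 35% of all genes. Without either nuclear replicate no member was called in either direction, without native replicate 1 or 2 there was 1 higher and none lower, and without PFA replicate 1 or 2 there were 6 higher and 29 lower.

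Set against the cytosolic fraction, native lamina RNA was higher for 25 members and lower for 8, beside 6.99% and 6.77% of all genes. Outside SLC25 the counts were 23 higher and 1 lower (median 0.53), and in SLC25 they were 2 higher and 7 lower (median -0.55). With total counts 43 members were higher and 4 lower, and with upper-quartile factors 37 and 5. Both native libraries lay above both cytosolic ones for 94 members and below them for 34, beside 35.8% and 28.5% of all genes. The higher members included SLC44A5 (2.86, SE 0.49, edgeR adjusted p 0.00625), a choline transporter relative with 27.2 and 22.1 CPM at the native lamina and 4.81 and 1.69 in the cytosol. They also included SLC9A5 (2.12), SLC9A8 (1.64), SLC38A2 (1.42), SLC30A1 (1.17), SLC4A7 (1.06), SLC16A8 (2.63), SLC37A2 (2.29), SLC25A27 (2.59), SLC39A10 (1.27; 0.71 without cytosolic replicate 1) and SLC1A3 (2.13; 1.34 without native replicate 1). SLC10A1 had 74 counts against 3, a ratio of 18.3 (95% counting interval 6.04 to 91.0).

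The carriers lower at the native lamina than in the cytosol were SLC25A3 (-1.79, SE 0.35, edgeR adjusted p 0.00925), SLC25A5 (-1.67, SE 0.40, edgeR adjusted p 0.0192), SLC25A11 (-1.36), SLC25A23 (-1.29), SLC25A26 (-1.23, S-adenosylmethionine), SLC25A17 (-1.17, a peroxisomal carrier) and SLC25A4 (-0.97). The sugar transporter SLC50A1 (-0.97) was the only lower member outside SLC25, and its call was lost with total counts and with upper-quartile factors. No call against the cytosol held without each of the 8 libraries in turn. The counts were 1 higher and 1 lower without cytosolic replicate 1, 1 and 0 without cytosolic replicate 2, 9 and 3 without native replicate 1, and 3 and 0 without native replicate 2. Without nuclear replicate 1 they were 15 and 5, without PFA replicate 1 43 and 15, and without PFA replicate 2 45 and 14.

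PFA lamina RNA exceeded nuclear RNA for 11 members and fell short of it for 25, beside 9.63% and 7.81% of all genes. Of the 11, 8 were mitochondrial carriers, and 2 of the other 3 were SLC35A4 and SLC30A9, the members that were lower in the nucleus outside SLC25. SLC30A9 stood at 1.27 with all libraries and at 0.64 without PFA replicate 1. The last was the choline transporter SLC44A2 (0.84, edgeR adjusted p 0.0493), whose call was lost without any 1 of the 8 libraries. SLC25 had a median of 0.13, with 8 higher and 2 lower, and the others -0.35, with 3 higher and 23 lower. With upper-quartile factors the SLC25 median turned to -0.04. Both PFA libraries lay above both nuclear ones for 36 members and below them for 78, beside 30.1% and 32.2% of all genes. With total counts 12 members were higher and 9 lower.

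The largest increases were those of SLC35A4 (1.92, SE 0.34, edgeR adjusted p 0.00753), SLC25A46 (1.85, SE 0.32, edgeR adjusted p 0.00723), SLC25A5 (1.73; 1.12 and no call without PFA replicate 1), SLC25A15 (1.63), SLC25A20 (1.63), SLC25A23 (1.57) and SLC25A24 (1.51). SLC25A38 was higher by 1.14, and by 0.75 without PFA replicate 1. Without nuclear replicate 1 no member was higher and 1 lower, without nuclear replicate 2 there were 2 and 4, without PFA replicate 1 there were 3 and 4, and without PFA replicate 2 there were 15 and 43. The summed nuclear RNAs of the 2 PFA libraries, given above, differed in the same way, and the part of that difference in these calls was not tested.

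SLC2A3 was the lower member whose call held without each of the 8 libraries and under all 7 other settings. It was 6.39-fold lower at the PFA lamina than in the nucleus (log2 fold change -2.68, SE 0.45, edgeR adjusted p 0.00723), and both PFA libraries (48.4 and 41.8 CPM) lay below the other 6 (89.5 to 373). Its difference from the cytosol, -1.76 (SE 0.44), and from the native lamina, -1.57 (SE 0.44), missed the threshold, with edgeR adjusted p values of 0.0696 and 0.313. Its near copy SLC2A14 had -2.60 against the nucleus. The other lower members included SLC16A4 (-3.12), SLC16A1 (-1.39), SLC4A7 (-1.57), SLC12A2 (-1.09), SLC1A4 (-1.11), SLC33A1 (-0.98), SLC34A3 (-2.64) and SLC7A7 (-2.97; -1.88 without PFA replicate 1 and -4.98 without PFA replicate 2). SLC10A1 had 0 counts in PFA replicate 1 and 16 in replicate 2. SLC34A3 had 73 and 54 of its 200 counts in the nuclear libraries, and SLC7A7 and SLC10A1 also had most of theirs there. These low-count members could pass the count threshold through the nuclear group, so their differences from it are not independent of the choice.

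Against the cytosolic fraction 4 members were higher and none lower at the PFA lamina (edgeR), beside 0.527% and 0.145% of all genes. At an unadjusted p under 0.05 there were 48 higher and 6 lower, and the Wald test of DESeq2 called 17 and 3. Both PFA libraries lay above both cytosolic ones for 87 members and below them for 19, beside 25.1% and 23.1% of all genes. The 4 were SLC3A2 (1.82, SE 0.30, edgeR adjusted p 0.0362), SLC9A8 (2.00, SE 0.36, edgeR adjusted p 0.0407), SLC9A5 (1.90, SE 0.38, edgeR adjusted p 0.0471) and SLC1A3 (2.44, SE 0.49, edgeR adjusted p 0.0471). None was called without any 1 of the 4 fraction libraries, and without PFA replicate 1 the counts were 33 higher and 4 lower. Between the PFA and the native lamina no member and no gene at all (0% and 0%) was called by edgeR. At an unadjusted p under 0.05 there were 12 members higher and 9 lower, and DESeq2 called 1 and 2. Both PFA libraries lay above both native ones for 45 members and below them for 39, beside 19.9% and 18.7% of all genes. Without PFA replicate 2 there were 2 higher and 7 lower.

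**Figure D5:**
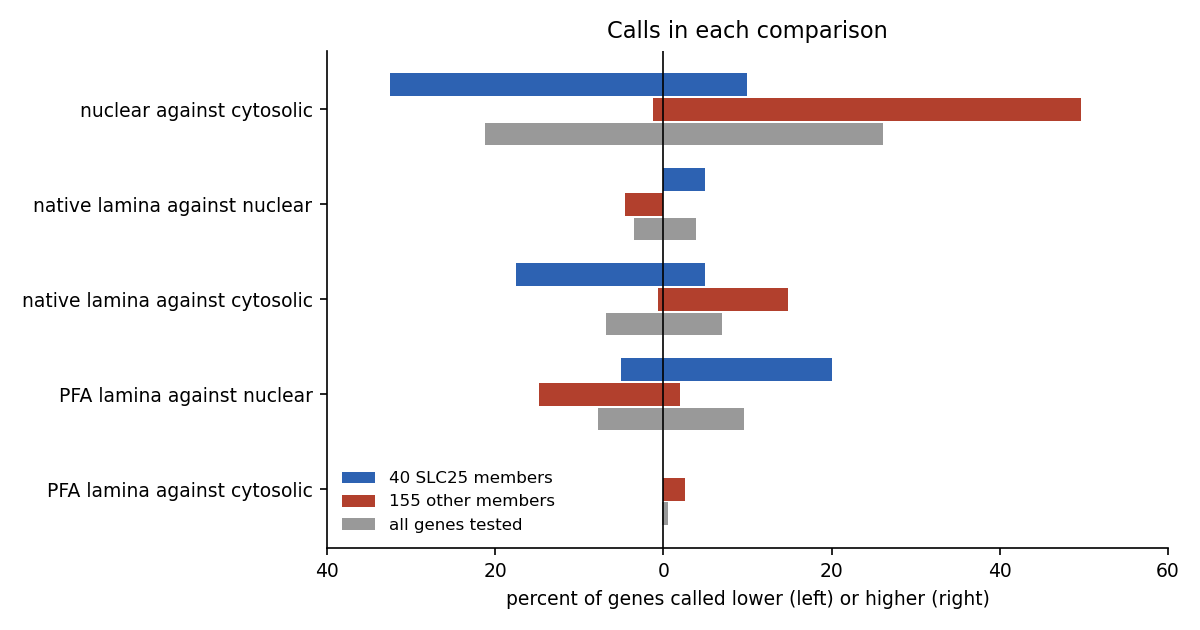
Percent of genes called lower (left of 0) and higher (right of 0) by edgeR in 5 comparisons, for the 40 SLC25 members, the 155 other members and all genes tested; the comparison of the lamina preparations, with no call, is not drawn. Between the fractions the longest bar to the right is that of the other members (77 genes) and the longest to the left that of SLC25 (13 genes).

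The last question was whether a member stood outside the range of the fractions at the lamina. None of the 195 was called higher, or lower, than both fractions in either preparation by edgeR, beside 0.0424% higher and 0.164% lower of all genes in the native and 0.0485% and 0.00606% in the PFA preparation. The smaller of the 2 comparisons' calls limited this, since the native lamina had 2 members above the nucleus. The PFA lamina had 4 above the cytosol and none below it, so no call below both fractions was possible there. By values alone, both native libraries lay above all 4 fraction libraries for 11 members (5.64%, beside 7.21% of all genes), a share below the background. These 11 included the choline transporters SLC44A1, SLC44A2 and SLC44A5, the zinc transporters SLC30A1, SLC39A7 and SLC39A10, and the amino acid transporters SLC7A1 and SLC38A1. SLC39A7 is annotated on several copies of its region of chromosome 6. Both PFA libraries lay above all 4 for 14 members (7.18%, beside 6.63% of all genes), a share near the background. SLC25A44, SLC30A1, SLC38A1, SLC39A7 and SLC44A2 were in both sets. Both native libraries lay below all 4 fraction libraries for 15 members (7.69%, beside 6.38% of all genes), and 9 of the 15 were mitochondrial carriers. Both PFA libraries did so for 8 members (4.1%, beside 4.68%), among them SLC2A3 and SLC2A14. All these counts by values used CPM scaled by TMM factors only.

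SLC30A1 (chromosome 1, 211748381 to 211752099), the zinc exporter of the cell surface, had 10.9 and 18.9 CPM in the nuclear, 9.48 and 12.3 in the cytosolic, 24.8 and 23.7 in the native and 21.6 and 19.4 in the PFA libraries. All 4 lamina libraries were above the fractions. Against the nucleus the log2 fold change was 0.71 (SE 0.34, edgeR adjusted p 0.190) at the native and 0.47 (SE 0.35, edgeR adjusted p 0.358) at the PFA lamina. For SLC38A1 the lamina values were 257 and 252, and 217 and 196, above 195 and 178 in the nuclear and 148 and 141 in the cytosolic libraries, with 0.45 (SE 0.26) and 0.15 (SE 0.26) against the nucleus. None of these 4 differences passed the test. By group means, 126 members (64.6%) lay between the fractions at the native and 128 (65.6%) at the PFA lamina, beside 60.5% and 61.9% of all genes. Of the carriers, 15 of 40 (37.5%) lay below both fraction means at the native lamina, beside 19.1% of all genes. These positions were computed with TMM factors only. With total counts the SLC25 median of the native lamina against the nucleus turned from -0.11 to 0.19, so the share below both means depends on the scaling.

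Other membrane transporters were read from lists of symbols. Of 33 ABC transporters, ATP-driven pumps of drugs and lipids, 18 were higher and 3 lower in the nucleus than in the cytosol (median 1.5). Of 42 ATPase membrane pumps 20 were higher and 5 lower (median 0.84), and of 30 other SLC and SLCO symbols 7 and 1 (median 0.71). The 207 genes with TMEM symbols, transmembrane proteins of mixed function, had 49 higher and 18 lower (median 0.26). The subunits that bring proteins into the endoplasmic reticulum, of the signal recognition particle, Sec61 and the EMC complex, had 3 of 27 higher and 9 lower (median -0.53). The chaperones of its lumen had 6 of 20 higher and 1 lower (median 0.43).

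Genes of the mitochondrion and the ribosome are given beside SLC25. Of 74 oxidative phosphorylation subunits, which like the carriers are imported from the cytosol, 63 were lower and 2 higher in the nucleus (median -1.63). Of 79 cytosolic ribosomal proteins 67 were lower and 3 higher (median -1.82). The carriers' median of -0.34 lay between these and the other members. At the PFA lamina 20 of the 74 subunits were higher and none lower than in the nucleus (median 0.81), and at the native lamina 58 were lower and none higher than in the cytosol (median -1.54).

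The labels also cover lamina-associated domains, chromatin at the lamina, in HCT116, a colorectal carcinoma line, as 1 consensus list per cell cycle stage without replicates. Of the 194 members on 1 chromosome, 1 lay wholly inside a domain in G1 (0.515%, beside 1.73% of 16316 genes), 1 in S (0.515%, beside 1.48%) and 2 in G2 (1.03%, beside 2.61%). SLC15A4, a lysosomal histidine and peptide transporter (chromosome 12, 129277739 to 129308541), was inside in all 3 stages, and SLC24A5, an ion exchanger of pigment granules (chromosome 15, 48413169 to 48434589), in G2. With any overlap counted, SLC4A4 was added in S. SLC15A4 RNA had 36.8 and 39.1 CPM in the nuclear, 17.0 and 17.3 in the cytosolic, 27.2 and 26.2 in the native and 36.7 and 26.8 in the PFA libraries, with the lamina between the fractions. The domains were mapped in another cell line than the RNA, so no relation between them was computed.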

How the data were processed

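The deposited values are read counts per gene symbol, 1 table per library, which the authors made with featureCounts 1.5.2 from RefFlat genes of hg19, per the file headers. By the options recorded there, counting disregarded strand, and reads over several genes counted once for every gene. TopHat2 2.1.1, Bowtie2 2.3.2 and edgeR 3.24.3 are in the submitters' processing notes. In the header of cytosolic replicate 1 the output bears the nuclear replicate's name, but the alignment read is the cytosolic one. The deposited domain lists hold intervals only. Samples of K562 have labels that contradict each other and were not used.

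Counts were fitted with edgeR 4.0.16 (R 4.3.3): filterByExpr by group, TMM factors, quasi-likelihood test, all 8 libraries in 1 fit without a block, 6 contrasts, Benjamini-Hochberg over 16504 genes, called at an adjusted p under 0.05. The SE is the log2 fold change over the root of F. Normalised CPM are counts divided by the TMM-scaled library total, in CPM units. Exonic length is as deposited by the authors. A floor of 3 counts equals 0.351 to 1.29 CPM. Intervals for ratios of counts are exact, at 95%, and like the floor cover counting error only, because PCR copies were not told apart by molecular identifiers.

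The script was tested on simulated counts. Alternatives were DESeq2 1.42.0 (size factors, Wald test), total counts, upper-quartile factors, no filter, a replicate block, the 4 libraries compared, and each library left out. Named were a fixed list of 25 transporters, per comparison the 5 highest and 5 lowest called members with 20 or more counts in both libraries of the higher group, the 6 of highest level per kilobase, and those next to the threshold. Any others were chosen after their values were seen. Some items that this rule names are not reported here. The members and lists were chosen with earlier results of these data known.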

Additional observations from a re-analysis of the deposited data

How the results depend on the processing

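The counts of calls at the lamina depended on the scaling and on single libraries. With total counts the calls of the native lamina against the nucleus turned from mostly lower (2 higher, 7 lower) to mostly higher (8 and 2), and those of the PFA lamina from 11 and 25 to 12 and 9. The SLC25 median turned from -0.11 to 0.19 for the native lamina against the nucleus and from -0.15 to 0.02 for the PFA lamina against the cytosol, both with total counts, and from 0.13 to -0.04 for the PFA lamina against the nucleus with upper-quartile factors. Of 39 named calls between the fractions 24 held without each library. At the native lamina none of 9 (against the nucleus) and of 18 (against the cytosol) did, and at the PFA lamina 1 of 20 and none of 4. PFA lamina replicate 2 has the lowest depth.

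With 1 library left out, 44 to 94 members were higher and 10 to 17 lower in the nucleus than in the cytosol (median 0.67 to 0.78). The native lamina had 0 to 6 higher and 0 to 29 lower than the nucleus (-0.49 to -0.29) and 1 to 45 and 0 to 15 against the cytosol (0.32 to 0.47). The PFA lamina had 0 to 15 and 1 to 43 against the nucleus (-0.26 to -0.19), 0 to 33 and 0 to 4 against the cytosol (0.32 to 0.43), and 0 to 2 and 0 to 7 against the native lamina (0.0267 to 0.15).

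For the native lamina against the nucleus, the numbers higher and lower were 8 and 2 with total counts (median -0.0558), 2 and 12 with upper-quartile factors (-0.49), 5 and 20 without the filter, 4 and 11 with DESeq2's Wald test and 8 and 31 with only the 4 libraries compared. Against the cytosol they were 43 and 4 (0.66), 37 and 5 (0.50), 35 and 13, 30 and 11, and 38 and 12 in the same order. For the PFA lamina against the nucleus they were 12 and 9 (-0.0583), 9 and 27 (-0.38), 12 and 29, 12 and 26 (-0.26), and 3 and 4, with a median of -0.26 under DESeq2 size factors. Against the cytosol they were 4 and 0 (0.58), 4 and 0 (0.53), 26 and 3, 17 and 3, and 3 and 0, with 2 higher under DESeq2 size factors. Between the lamina preparations the median was 0.0137 with total counts, 3 members were lower without the filter, and DESeq2 called 1 and 2. The median between the fractions was 1.02 with upper-quartile factors. With any overlap counted, 2 members met a domain in S. The cause of these changes was not tested.

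The deviations of same-numbered libraries had correlations across genes of -0.03 to 0.35, over 0.1 in 4 of 6 pairs of groups. The nuclear and the cytosolic group had -0.00075 and -0.03 with the PFA lamina. With 2 libraries a group and no label that ties the numbers, same-numbered libraries were not taken as pairs. With the replicate block 93 members were higher and 15 lower between the fractions, 4 and 19 (2 and 7 without it) for the native lamina against the nucleus, 37 and 13 against the cytosol, 13 and 29 for the PFA lamina against the nucleus, and 15 and 2 (4 and 0 without it) against the cytosol.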
